A study of Mus musculus with 6 samples.

Results

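The BTG/TOB family of antiproliferative genes and the CCR4-NOT deadenylase complex to which their products bind were followed in L929 cells given TNF-α with actinomycin D. Members were the rows of the deposited gene count table named Btg1, Btg2, Btg3, Tob1, Tob2, Cnot1, Cnot2, Cnot3, Cnot7 and Cnot8. They are 10 of the 54532 genes of the table, 5 from the family and 5 from the complex. The expression filter kept 9 of them among the 13290 genes tested, and Btg3 did not pass it.

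L929 is an established mouse fibroblast line, labelled wild type, that is widely used to study killing by tumour necrosis factor. There were 2 groups of 3 RNA sequencing libraries: control cells, and cells kept for 12 hours with TNF-α, an inflammatory cytokine, at 10 ng/ml together with actinomycin D, a DNA-binding blocker of transcription, at 1 µg/ml. All 6 libraries came from the 1 line, and neither agent was given alone, so the effects of TNF-α and of actinomycin D cannot be told apart. The treatment text in the labels is the same for control samples, and the groups follow the sample titles and treatment labels.

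The ends of most mRNAs carry a poly(A) tail, and shortening of that tail is usually the first step of their decay. CCR4-NOT does much of this shortening in the cytoplasm: CNOT1 is its scaffold, CNOT2 and CNOT3 form the NOT module on that scaffold, and CNOT7 and CNOT8 are paralogous catalytic deadenylases. BTG and TOB proteins bind CNOT7 and CNOT8 through a shared domain, link them to poly(A)-binding protein, and slow cell division when abundant. Btg2 is also known as an immediate early gene and as a target of p53.

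Library totals ran from 16056207 to 18036322 counts. Genes with a count numbered 19219 to 20116 in controls and 15705 to 18849 in treated libraries. Within a group, log2 CPM (counts scaled to library depth, here by TMM factors) correlated across genes at 0.98 to 0.991 in controls and 0.957 to 0.976 in treated libraries. No library was a copy of another. Of 14 fibroblast markers, 11 averaged over 1 CPM, whereas Dcn and Lum were at 0 in all libraries; the summed list stood at 7050 to 9130 CPM in controls and at 22100 to 25800 CPM in treated libraries. The 6 macrophage markers summed to 2.21 to 2.77 CPM in controls and 23.5 to 31.0 CPM in treated libraries, with 1 of them, Cd68, averaging over 1 CPM and Itgam at 0. The 6 epithelial markers summed to 2.86 to 4.15 and 9.31 to 12.7 CPM, with Krt14 alone over 1 CPM and Epcam, Krt5 and Cldn4 at 0. The part of these markers in the results was not tested. Lymphocyte and endothelial lists stayed at or below 1.59 CPM in every library.

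The promoters of the 4 measured BTG/TOB genes are shown because 2 of these genes rose and 2 did not. Each runs from 250 bases before to 50 bases after a transcription start in RefSeq on GRCm38.p6, and is written 5′ to 3′ on the gene's strand. Capitals mark the CRE half-site TGACG (with the full cyclic AMP response element TGACGTCA, which holds the half-site on both strands), the CCAAT box and the TATA box TATAAA, read on either strand. The windows are chr10:96616751-96617050 (plus strand) for Btg1, chr1:134079106-134079405 (minus strand) for Btg2, chr11:94211204-94211503 (plus strand) for Tob1 and chr15:81858277-81858576 (minus strand) for Tob2.
Btg1: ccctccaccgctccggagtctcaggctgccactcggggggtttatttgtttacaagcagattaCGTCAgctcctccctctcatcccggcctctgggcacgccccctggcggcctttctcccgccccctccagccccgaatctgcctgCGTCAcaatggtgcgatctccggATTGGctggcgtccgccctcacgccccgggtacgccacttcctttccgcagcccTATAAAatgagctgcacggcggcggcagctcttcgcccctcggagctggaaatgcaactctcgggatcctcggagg
Btg2: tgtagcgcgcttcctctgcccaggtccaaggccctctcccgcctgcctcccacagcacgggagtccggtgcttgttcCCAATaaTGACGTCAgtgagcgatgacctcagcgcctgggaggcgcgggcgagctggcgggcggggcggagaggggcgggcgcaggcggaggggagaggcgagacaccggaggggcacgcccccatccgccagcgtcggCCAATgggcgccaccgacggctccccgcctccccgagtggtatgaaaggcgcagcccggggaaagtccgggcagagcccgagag
Tob1: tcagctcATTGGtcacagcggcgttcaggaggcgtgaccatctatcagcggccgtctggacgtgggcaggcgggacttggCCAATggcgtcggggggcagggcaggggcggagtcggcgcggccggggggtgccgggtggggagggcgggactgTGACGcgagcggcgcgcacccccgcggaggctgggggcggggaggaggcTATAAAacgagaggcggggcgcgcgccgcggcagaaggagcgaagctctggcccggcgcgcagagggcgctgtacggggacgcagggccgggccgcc
Tob2: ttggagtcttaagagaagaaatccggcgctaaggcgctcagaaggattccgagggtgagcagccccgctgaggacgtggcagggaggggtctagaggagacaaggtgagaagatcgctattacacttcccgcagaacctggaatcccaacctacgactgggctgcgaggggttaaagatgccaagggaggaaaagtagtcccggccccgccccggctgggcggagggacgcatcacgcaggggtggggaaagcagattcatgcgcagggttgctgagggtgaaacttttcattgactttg

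Of these 4 windows, only that of Btg2 holds the full TGACGTCA, with its first base 166 bases before the start; 1.79% of 32851 RefSeq promoters of this length hold it. The half-site TGACG, which 20.8% of promoters hold, lies 187 and 103 bases before the start of Btg1 and 96 bases before that of Tob1. A TATAAA, held by 13.6% of promoters, begins 26 bases before the start of Btg1 and 47 bases before that of Tob1. CCAAT, held by 37.4%, is in the windows of Btg1, Btg2 and Tob1. The window of Tob2 holds none of these letters, but it lies wholly inside the counted gene, whose 5′ end is at chr15:81858796. It thus describes an internal start, whereas the windows of Btg1, Btg2 and Tob1 reach past the 5′ ends of their genes. All 4 windows hold GGGCGG, the GC box, as do 35.7% of promoters. Neither the AP-1 letters TGANTCA (7.81% of promoters) nor the p53 half-site (8.36%) was found in any window of the 8 matched members, and the NF-kB site (6.93%) was in 1 window of Btg3 only. The GC share of the windows was 64.7% for Btg1, 72.0% for Btg2, 75.3% for Tob1 and 58.0% for Tob2, against a median of 52.7% over all promoters. A match of letters is a description and not a measured site. Cnot1 and Cnot7 have no entry in the promoter table.

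Among the antiproliferative genes, Btg2 rose most. Btg2 (1:134075170-134079120, minus strand, GRCm38; ENSMUSG00000020423) spans 3.95 kb with 2 exons. Its counts were 69, 48 and 61 in control replicates 1 to 3 and 548, 708 and 1038 in treated replicates 1 to 3. As CPM these are 2.86, 1.96 and 2.41 against 48.4, 62.6 and 79.2. Every treated library lay far above every control library. The means were 2.41 ± 0.447 and 63.4 ± 15.4 CPM (SD, n = 3 each), a 26.3-fold rise. The fitted log2 fold change was 4.72 ± 0.257 (SE; adjusted p = 3.19e-07 by the quasi-likelihood test of edgeR, adjusted by Benjamini-Hochberg over all tested genes), above that of 99.7% of tested genes. Btg2 was called higher in 20 of 20 alternative fits, with values from 2.40 to 4.88.

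Tob1, whose product also represses growth and recruits CCR4-NOT, rose as well. Tob1 lies at 11:94211454-94215495 on the plus strand (ENSMUSG00000037573), spans 4.04 kb and has 2 exons. Counts were 260, 216 and 217 in controls and 315, 284 and 600 in treated libraries, or 10.8, 8.83 and 8.58 against 27.8, 25.1 and 45.8 CPM. The groups did not overlap, and treated replicate 3 was the highest. From 9.39 ± 1.20 to 32.9 ± 11.2 CPM (SD, n = 3 each), the log2 fold change was 1.81 ± 0.253 (SE; adjusted p = 6.46e-05), a 3.51-fold rise. This direction depended on the scaling: the log2 fold change was -0.49 (adjusted p = 0.294) with 82 ribosomal protein genes held equal and -0.38 (adjusted p = 0.298) with 23 mitochondrially encoded genes held equal.

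Btg1, the paralogue of Btg2 and the most abundant family member in control cells, did not pass the test. It lies at 10:96617006-96622809 on the plus strand (ENSMUSG00000036478) and spans 5.80 kb with 2 exons. Its counts were 2165, 1551 and 1724 in controls and 532, 749 and 1103 in treated libraries, which scaled to 89.6, 63.4 and 68.1 against 47.0, 66.2 and 84.2 CPM. The groups overlapped after scaling. The log2 fold change was -0.16 ± 0.221 (SE; adjusted p = 0.518). Scaled by library size alone it was -1.17 (adjusted p = 0.00543), and with an offset that removes the trend of change with gene length it was 0.46 (adjusted p = 0.0461), so the side on which Btg1 fell was set by the scaling. The pseudogene copies Btg1-ps1 and Btg1-ps2 have 0 counts, and the handling of reads that match more than 1 copy is not stated in the labels or file headers.

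Tob2 (15:81848272-81858796, minus strand, 10.5 kb; ENSMUSG00000048546), the paralogue of Tob1, had counts of 887, 703 and 730 in controls and 167, 183 and 385 in treated libraries. The CPM were 36.7, 28.7 and 28.9 against 14.8, 16.2 and 29.4. Treated replicate 3 lay within the control range. The log2 fold change was -0.64 ± 0.264 (SE; adjusted p = 0.0456), a 1.56-fold fall that passed the threshold narrowly. The call held in only 9 of 20 alternatives. It was lost, among others, in the fits without control replicate 1 (adjusted p = 0.133), control replicate 2 (0.0529), control replicate 3 (0.0531), treated replicate 1 (0.0724) or treated replicate 2 (0.114), and the sign turned with the length offset (0.17, adjusted p = 0.496).

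Btg3 (16:78332637-78377192, minus strand, 44.6 kb; ENSMUSG00000022863) was near the limit of counting, with 1, 7 and 0 counts in controls and 0, 0 and 3 in treated libraries. The ratio of its scaled counts, treated over control, was 0.776, with an exact 95% interval from counting error of 0.133 to 3.23. A difference in Btg3 was thus not detectable at this depth.

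**Figure D1:**
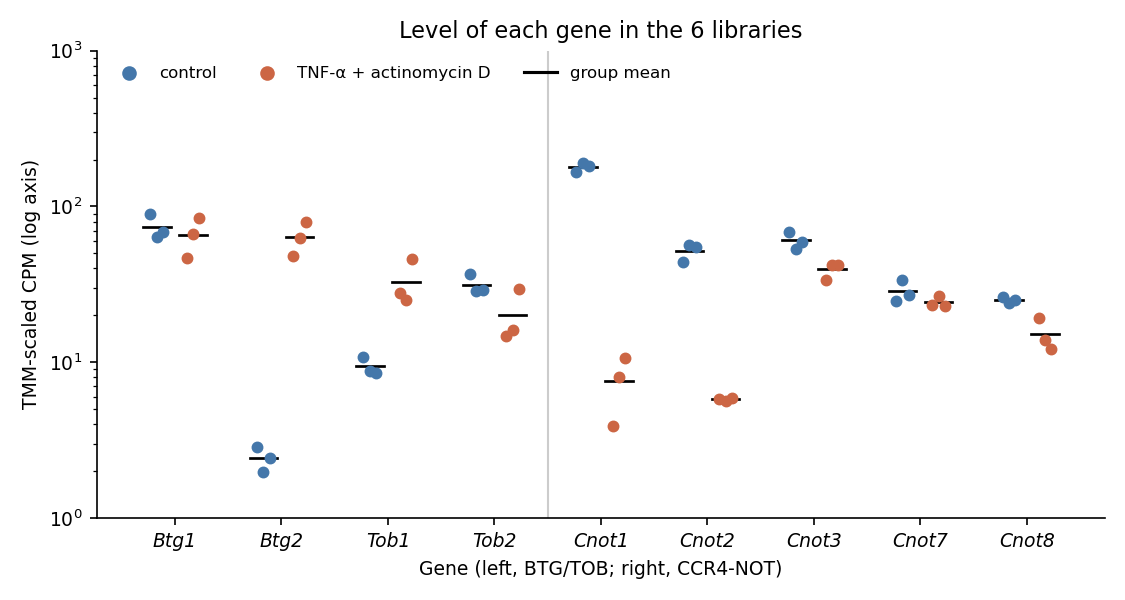
TMM-scaled CPM (log axis) of the 9 tested genes in each of 3 control and 3 treated libraries; points are libraries and bars are group means. Btg2 and Tob1 lay higher in every treated library, Cnot1, Cnot2, Cnot3 and Cnot8 lower, and Btg1, Tob2 and Cnot7 overlapped.

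The scaffold subunit Cnot1 fell most of the 9. Cnot1 (8:95719451-95807464, minus strand, 88.0 kb, 49 exons in the transcript used; ENSMUSG00000036550) had 4023, 4680 and 4587 counts in controls and 44, 91 and 140 in treated libraries. The CPM were 166.6, 191.3 and 181.3 against 3.89, 8.04 and 10.7. All treated libraries were far below all controls, and treated replicate 1 was the lowest. The means were 179.7 ± 12.4 and 7.54 ± 3.43 CPM (SD, n = 3 each), a 23.7-fold fall with a log2 fold change of -4.57 ± 0.309 (SE; adjusted p = 9.0e-07). Only 0.918% of tested genes had a lower value. The call held in 20 of 20 alternatives, from -6.90 to -2.95.

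Cnot2, of the NOT module, fell too. Cnot2 (10:116485161-116581511, minus strand, 96.4 kb; ENSMUSG00000020166) had 1064, 1385 and 1394 counts in controls and 66, 64 and 77 in treated libraries. As CPM these were 44.1, 56.6 and 55.1 against 5.83, 5.66 and 5.88. The treated libraries differed little among themselves, and all lay below the controls. The log2 fold change was -3.16 ± 0.194 (SE; adjusted p = 4.72e-07), an 8.96-fold fall, called in 20 of 20 alternatives at -5.58 to -2.43.

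Cnot3, the other NOT-module subunit, moved far less. Cnot3 (7:3645268-3661109, plus strand, 15.8 kb; ENSMUSG00000035632) had 1667, 1311 and 1506 counts in controls and 382, 476 and 554 in treated libraries, or 69.0, 53.6 and 59.5 against 33.7, 42.1 and 42.3 CPM. The groups did not overlap. The log2 fold change was -0.62 ± 0.171 (SE; adjusted p = 0.0064), a 1.54-fold fall. With the length offset it was 0.28 (adjusted p = 0.15) and not called.

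The catalytic subunit Cnot8 (11:58104153-58118594, plus strand, 14.4 kb; ENSMUSG00000020515) had 635, 584 and 631 counts in controls and 219, 156 and 160 in treated libraries. The CPM were 26.3, 23.9 and 24.9 against 19.3, 13.8 and 12.2. The treated libraries all lay below the controls, replicate 1 the nearest to them. The log2 fold change was -0.73 ± 0.211 (SE; adjusted p = 0.00873), a 1.66-fold fall that was called in 20 of 20 alternatives (-3.16 to -0.57).

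Its paralogue Cnot7 (8:40492540-40515847, minus strand, 23.3 kb; ENSMUSG00000031601) had 598, 822 and 682 counts in controls and 262, 301 and 299 in treated libraries. The CPM were 24.8, 33.6 and 27.0 against 23.1, 26.6 and 22.8, and the groups overlapped. Cnot7 was not called (log2 fold change -0.23 ± 0.186, SE; adjusted p = 0.272). By library size alone it was called lower (-1.29, adjusted p = 6.96e-04), and with the length offset it was called higher (0.50, adjusted p = 0.031). Cnot7 overlaps the oppositely oriented Zdhhc2 (9628 counts over the 6 libraries) and Vps37a (2150), Cnot3 overlaps Leng1 (781), Cnot2 overlaps 5330438D12Rik (135) and Cnot1 overlaps the antisense RNA 4930513N10Rik (90). The labels and file headers do not say whether strand was used in counting, so reads of these pairs may not be separable. Btg1, Btg2, Tob1 and Cnot8 overlap no other gene of the annotation.

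Of the 9 tested members, 2 were called higher (Btg2 and Tob1), 5 were called lower (Tob2, Cnot1, Cnot2, Cnot3 and Cnot8) and 2 were not called (Btg1 and Cnot7). Over all tested genes 34.6% were called higher and 40.2% lower, so these counts by themselves do not set the members apart. The same holds for the CPM ranges: 2 members were higher and 4 lower with no overlap between groups, where 35.9% and 42.0% of all tested genes were. What differs between the members is the size of the change, from the top 1% to the bottom 1% of tested genes. CPM and the fitted changes are relative to the other RNA of each library, so they do not give the amount of RNA per cell. In bulk RNA, fewer cells and less RNA per cell cannot be told apart.

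Each set of factors applied to whole libraries moved all 9 values up or all down. The median log2 fold change of all tested genes was -0.18 with TMM factors, -1.21 with library size alone and -2.56 with ribosomal protein genes held equal. By library size alone, 17.1% of genes were called higher and 59.6% lower, with 2 members higher and 7 lower. With ribosomal protein genes held equal, 1.89% were called higher and 82.3% lower; Btg2 was then the 1 member called higher, and 7 were called lower. The length offset is set gene by gene and moved genes apart. With it, 37.2% of genes were called higher and 34.3% lower, and 4 members were higher (Btg1, Btg2, Tob1 and Cnot7) and 3 lower (Cnot1, Cnot2 and Cnot8). The order of the extremes was kept: Btg2 stayed on the higher side and Cnot1, Cnot2 and Cnot8 on the lower side under each of these scalings and with the offset.

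**Figure D2:**
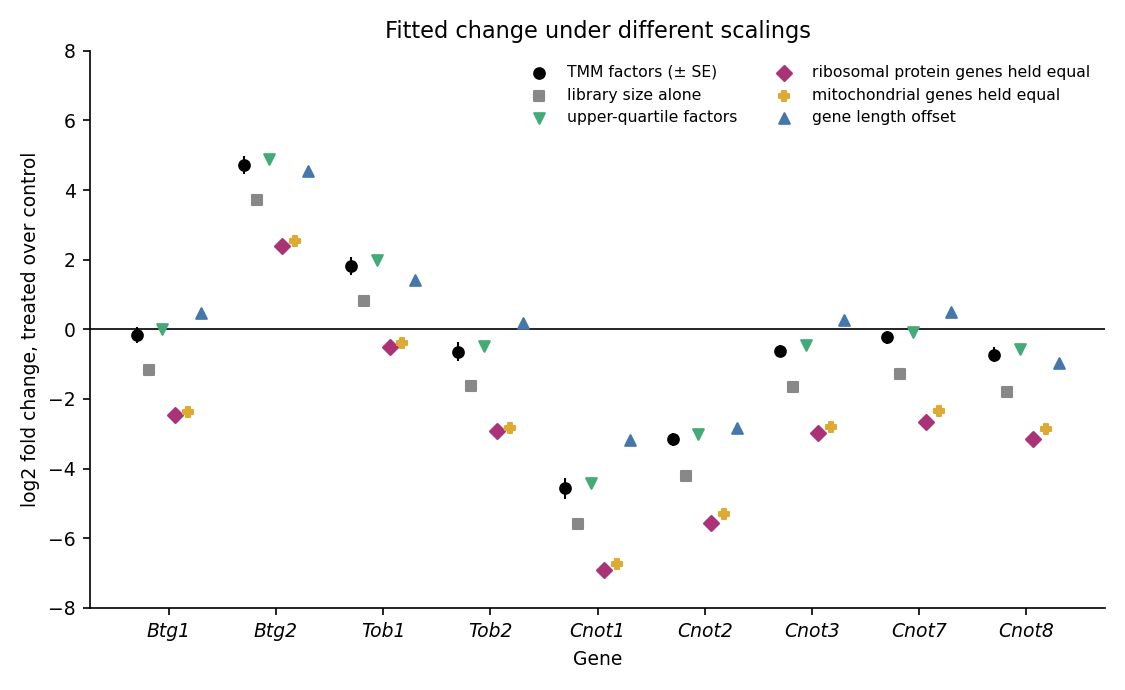
Log2 fold change (treated over control) of each of the 9 tested genes under 5 scalings by library and with the gene length offset (triangles); bars on the TMM values are SE. Btg2 stays above 0 and Cnot1, Cnot2 and Cnot8 below 0 in each, while Tob1, Btg1, Tob2, Cnot3 and Cnot7 change sides.

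Ratios between related members within a library do not depend on factors applied to whole libraries, but they would change with the length offset. They were computed from counts per base of gene length, and 3 against 3 libraries cannot give an exact permutation p under 0.1. The ratio of Btg1 to Btg2 was 16.3, 16.8 and 14.7 in controls and 0.505, 0.55 and 0.552 in treated libraries. Per base of gene length, the order of the paralogues was thus reversed in all 3 treated libraries. The difference was -4.89 on the log2 scale (exact two-sided permutation p = 0.1, 0.125 after adjustment over the 5 pairs tested). In CPM, which is not divided by length, the treated means were close, at 65.8 for Btg1 and 63.4 for Btg2. Btg1 was then still the higher in treated replicates 2 and 3. The ratio of Tob1 to Tob2 was 0.854, 0.895 and 0.866 in controls and 5.49, 4.52 and 4.54 after treatment, a log2 difference of 2.47 (exact permutation p = 0.1, adjusted 0.125). Per base of gene length, the gene with the smaller control level was the more abundant one after treatment in both paralogue pairs.

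Within the complex, Cnot2 to Cnot3 went from 1.12, 1.85 and 1.62 in controls to 0.302, 0.235 and 0.243, a log2 difference of -2.53 (exact permutation p = 0.1, adjusted 0.125). The ratio of the catalytic Cnot8 to the scaffold Cnot1 was 1.03, 0.813 and 0.896 in controls and 32.4, 11.2 and 7.44 in treated replicates 1, 2 and 3. That is a log2 difference of 3.94 (exact permutation p = 0.1, adjusted 0.125), or 3.33 without treated replicate 1, which had the highest ratio. The ratio of the paralogues Cnot7 and Cnot8 was 0.426, 0.637 and 0.489 in controls against 0.542, 0.874 and 0.846, with overlapping groups and a log2 difference of 0.53 (exact permutation p = 0.2, adjusted 0.2).

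The same values can be written as the share of each gene in the summed FPKM (a level scaled to gene length and library) of its family. The deposited FPKM is the count per length times a factor of the library, so these shares restate the ratios and are not a separate observation. Btg1 went from 58.8 ± 1.43% of BTG/TOB transcripts to 23.5 ± 2.03% (SD, n = 3 each), and Btg2 from 3.70 ± 0.305% to 43.9 ± 2.64%. Tob1 went from 17.4 ± 0.902% to 27.0 ± 3.94%, and Tob2 from 19.5, 20.6 and 19.8% to 5.41, 4.98 and 6.36%. None of these 4 shares overlapped between groups. Shares of a common sum depend on each other, since a rise of Btg2 lowers the rest, so these are not 4 separate results. In CPM, 35.9% of all tested genes were higher and 42.0% lower without overlap. Summed over the family, the deposited FPKM was 27.2, 20.3 and 21.0 in controls and 43.0, 50.2 and 67.6 in treated libraries.

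Of the 5 CCR4-NOT members, Cnot1 held 21.8, 23.5 and 22.7% of the summed FPKM in controls and 1.28, 2.67 and 3.76% after treatment. Cnot2 went from 27.6 ± 2.81% to 8.23 ± 0.426% (SD, n = 3 each). The shares of Cnot3 (18.5 ± 3.01% to 32.1 ± 4.75%), Cnot7 (10.6 ± 1.41% to 24.1 ± 1.81%) and Cnot8 (20.6 ± 1.69% to 33.1 ± 7.31%) were larger in each treated library than in each control library, although Cnot3 and Cnot8 fell in CPM. The summed FPKM of these 5 genes was 42.8, 45.9 and 44.8 in controls and 18.6, 18.1 and 16.1 in treated libraries. On this deposited scale the family sum was higher and the complex sum lower in every treated library. Scaled by library total alone, an alternative chosen after seeing the data, the family sums overlapped (37.8, 32.0 and 31.7 against 26.2, 32.1 and 55.2), and the complex sums did not (59.5, 72.2 and 67.5 against 11.3, 11.6 and 13.2). Over 11 subunit genes (Cnot1 to Cnot4, Cnot6, Cnot6l and Cnot7 to Cnot11), the scaffold made up 10.1 ± 0.597% of summed FPKM in controls and 1.06 ± 0.498% after treatment. Cnot10 held 7.07 to 8.04% in controls and 19.1% or more in every treated library.

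**Figure D3:**
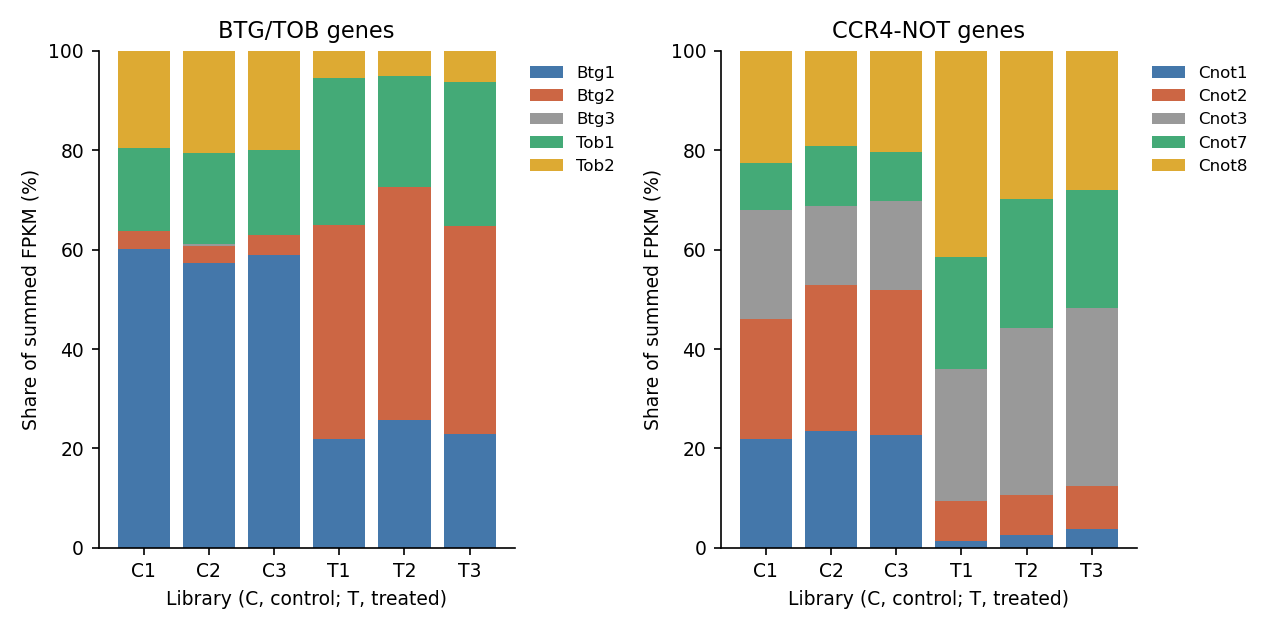
Share (percent) of the summed FPKM held by each gene within the BTG/TOB family and within the 5 CCR4-NOT members, per library. Btg2 goes from 3.70% to 43.9% of the family on average, and Cnot1 from 22.7% to 2.57% of the complex.

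The members also differ in gene structure. Btg2 and Tob1, which rose, are the shortest at 3.95 and 4.04 kb with 2 exons each. Btg1, not called, and Tob2, called lower, have 2 exons as well. Cnot1 and Cnot2, which fell most, are the longest of the 9 at 88.0 and 96.4 kb with 49 and 16 exons. Over the 9 tested members, Spearman's rho between gene span and log2 fold change was -0.833. Over all 13290 tested genes it was -0.366, as a description across genes of the same 6 libraries. Split by span into 5 bins of 2657 to 2659 genes, the tested genes had median log2 fold changes of 1.03, 0.35, -0.15, -0.70 and -1.17 from the shortest bin to the longest. Btg2 at 4.72 and Tob1 at 1.81 stood above the median of 1.03 of the shortest bin, and Cnot1 at -4.57 and Cnot2 at -3.16 stood below the median of -1.17 of the longest. The part of span in the members' values was not tested, and spliced gene length gave a rho of -0.467 over the 9 members and -0.421 over all tested genes.

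**Figure D4:**
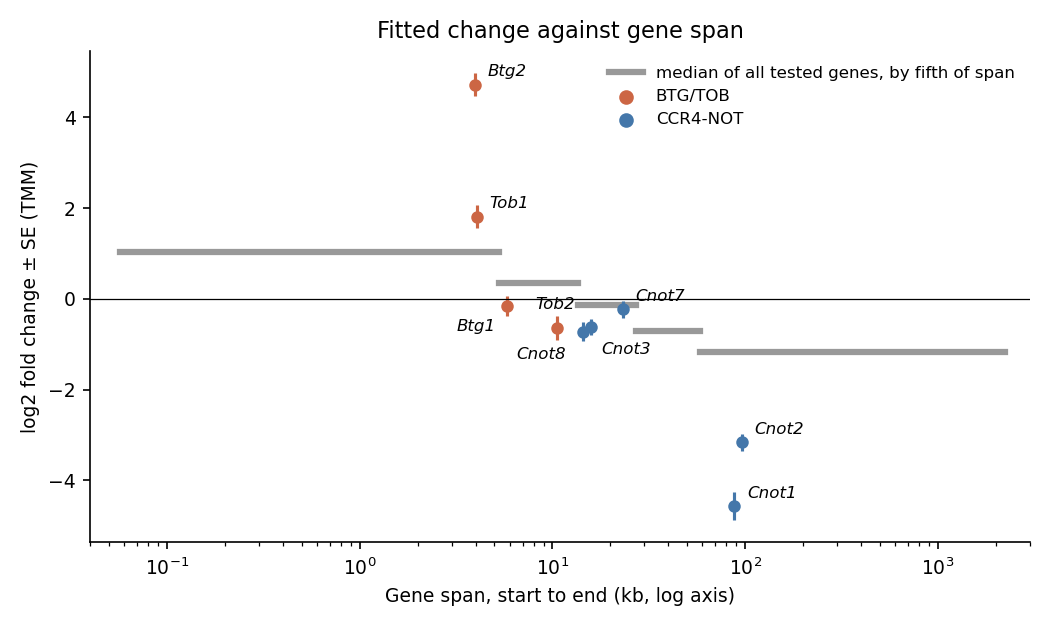
Log2 fold change (treated over control, ± SE) against gene span in kb (log axis) for the 9 tested genes, with the median of all tested genes in each of 5 bins of span as grey bars. The medians go from 1.03 in the shortest bin to -1.17 in the longest, and Btg2 and Cnot1 lie farthest from them.

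The 3′ untranslated regions carry letters that decay factors read, so these were counted in 1 GENCODE transcript of each gene. The AU-rich pentamer ATTTA, part of the elements bound by ZFP36 proteins, occurred 11 times in the 4166 bases of Btg1, 5 times in the 2199 bases of Btg2, 3 times in the 767 bases of Tob1 and 4 times in the 2457 bases of Tob2. Per kilobase these are 2.64, 2.27, 3.91 and 1.63, against a median of 1.22 over 11326 tested genes. In the same order, 76.0, 70.4, 88.4 and 58.6% of those genes had a lower density. Btg3, near the limit of counting, had 4 in 439 bases, or 9.11 per kb, with 98.6% of those genes lower. In the complex the density was lowest in Cnot1, at 1.05 per kb, then 1.93 in Cnot2, 2.98 in Cnot8, 3.46 in Cnot7 and 3.53 in Cnot3. The nonamer TTATTTATT was in none of the 10 regions, and 7.41% of genes hold it.

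The other genes of the pathway were taken from 6 lists of 95 symbols, of which 84 genes were tested: 19 were called higher and 51 lower, with a median log2 fold change of -0.80 beside -0.18 over all tested genes. These counts, and those of each list, stand beside 34.6% called higher and 40.2% called lower over all tested genes, and no set test was run. Among the other CCR4-NOT subunits, 6 of 7 were called lower, with a median of -2.10. The catalytic Cnot6l had -3.18 ± 0.414 (SE; adjusted p = 5.18e-05), or -3.90 without treated replicate 3, the ubiquitin ligase subunit Cnot4 -2.63 ± 0.297 (adjusted p = 1.29e-05), and the adaptor-binding subunit Cnot9 -2.60 ± 0.174 (adjusted p = 6.39e-07). Cnot10 was the 1 subunit not called (0.27 ± 0.168, SE; adjusted p = 0.163), and is named after its value was seen. It was called lower by library size alone (-0.79, adjusted p = 6.49e-04) and higher with the length offset (1.14, adjusted p = 3.94e-04).

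Of 13 other deadenylase and poly(A)-binding genes, 5 were called higher and 7 lower (median -0.41); with the length offset 7 were higher and 2 lower. Those higher included poly(A)-binding Pabpc1 (0.98 ± 0.202, SE) and Pabpc4 (1.11 ± 0.156) and the poly(A)-binding protein inhibitor Paip2 (2.66 ± 0.146), with adjusted p of 0.00104, 6.83e-05 and 3.34e-07. With ribosomal protein genes held equal, Pabpc1 (-1.37) and Pabpc4 (-1.28) turned to the lower side and Paip2 (0.25) was not called, and by library size alone neither Pabpc1 (-0.04) nor Pabpc4 (0.07) was called. The nuclease gene Pde12 (-2.58 ± 0.260), Noct (-1.40 ± 0.231) and the deadenylase subunit Pan3 (-0.70 ± 0.275) were called lower. The call of Noct was lost with the length offset. Pan3 turned to the higher side with it (0.63), and its call under TMM factors was lost without control replicate 2 (adjusted p = 0.108), control replicate 3 (0.0626), treated replicate 1 (0.0865) or treated replicate 2 (0.125), and with median-ratio (0.0508) or upper-quartile factors (0.124).

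Among 20 tested adaptors, which bring CCR4-NOT to chosen mRNAs, 4 were called higher and 12 lower (median -1.21). Zfp36, the AU-rich element binder tristetraprolin, rose from 8.40 ± 1.89 to 90.8 ± 14.6 CPM (SD, n = 3 each), a log2 fold change of 3.43 ± 0.218 (SE; adjusted p = 5.0e-07), and was the 1 gene of the 6 lists still called higher with ribosomal protein genes held equal. Its relative Zfp36l1 (1.31 ± 0.232) and Samd4b (0.55 ± 0.153) were higher with TMM factors and on the lower side with ribosomal protein genes held equal. Zfp36l1 was not called by library size alone (0.28, adjusted p = 0.386). The remaining relative Zfp36l2, named after its value was seen, fell (-2.33 ± 0.243, SE; adjusted p = 9.04e-06). Samd4b also lost its call without control replicate 3 (adjusted p = 0.0557) or without the filter (0.0745), and it was called lower by library size alone (-0.48). Ythdf2, the reader of N6-methyladenosine in mRNA, fell (-2.96 ± 0.279), as did the RNA-binding repressor gene Pum2 (-2.86 ± 0.330).

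In decapping and 5′ to 3′ decay, 6 of 20 tested genes were called higher and 11 lower (median -0.78). The 3 largest rises were the Lsm ring genes Lsm4 (2.57 ± 0.250, SE), Lsm5 (2.56 ± 0.181) and Lsm7 (2.22 ± 0.247), none of which was called with ribosomal protein genes held equal, where Lsm7 was at -0.24. The 3 largest falls were the decapping factors Dcp1a (-2.80 ± 0.234), Edc3 (-2.70 ± 0.279) and Patl1 (-2.39 ± 0.213). Of 14 tested genes in the list of the exosome and its cofactors, 2 were called higher and 10 lower (median -1.40). Exosc7 was at -3.20 ± 0.216, Exosc1 at -1.91 ± 0.179 and the cofactor gene Ttc37 at -1.63 ± 0.341. Against these, the cofactor gene Skiv2l was at 1.33 ± 0.146 and Exosc5 at 0.86 ± 0.228. Skiv2l and Exosc5 turned to the lower side with ribosomal protein genes held equal and were not called by library size alone, and the call of Ttc37 was lost with the length offset.

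The last list holds genes linked to BTG and TOB proteins outside the complex: known partners, and also Ccnd1 and Rb1. Of its 10 tested genes, 2 were called higher and 5 lower (median -0.31), and 5 and 3 with the length offset. Prmt1, an arginine methyltransferase that binds BTG1 and BTG2, was higher by 1.48 ± 0.206 (SE; adjusted p = 6.15e-05), and Hoxb9, a transcription factor that binds BTG2, by 1.45 ± 0.148 (adjusted p = 6.46e-06); both turned to the lower side with ribosomal protein genes held equal. The Smad signal transducers Smad4 (-3.89 ± 0.297), Smad1 (-3.58 ± 0.309) and Smad5 (-1.18 ± 0.215) were lower, Smad5 not with the length offset. Ccnd1, a cyclin gene repressed by BTG and TOB proteins, was not called (519.5 ± 57.5 and 488.2 ± 75.1 CPM, SD, n = 3 each; log2 fold change -0.09 ± 0.172, SE; adjusted p = 0.65), and is named after its value was seen. It was called lower by library size alone (-1.11, adjusted p = 6.67e-04) and higher with the length offset (0.42, adjusted p = 0.0326).

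**Figure D5:**
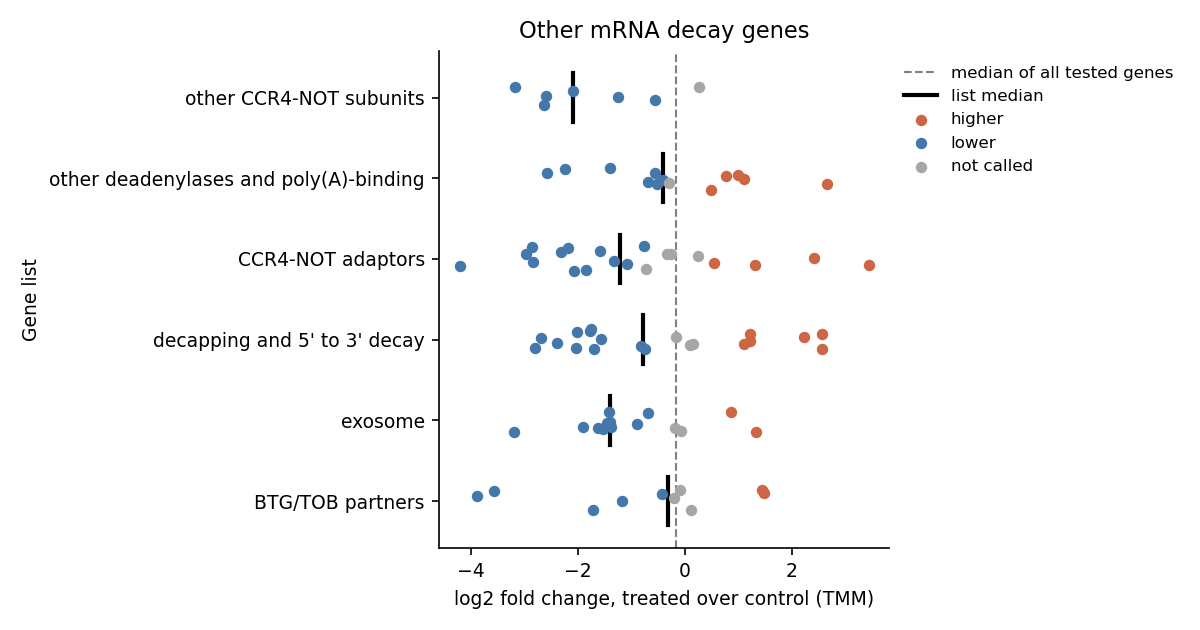
Log2 fold change (treated over control) of each tested gene in the 6 pathway lists, one point per gene, with the median of each list and that of all tested genes (-0.18). The other CCR4-NOT subunits have the lowest median, -2.10, and every other list holds genes called higher and genes called lower.

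The profiles most like those of Btg2 and Cnot1 were sought among 9146 protein-coding genes, by the root mean square difference of centred log2 CPM over the 6 libraries. Nearest to Btg2 were 1700001P01Rik (0.328), the chemokine gene Ccl7 (0.387) and the linker histone gene Hist1h1c (0.454). Of these, 1700001P01Rik was near the floor in controls, with means of 0.350 CPM there and 11.05 CPM in treated libraries. It reached the mean of 5 CPM required of these genes only through the treated libraries. Nearest to Cnot1 were the replication genes Cdc6 (0.160) and Wdhd1 (0.165) and the nucleoporin gene Nup98 (0.185). Ccl7 went from 62.1 ± 6.94 to 1238 ± 206 CPM and Nup98 from 66.9 ± 0.610 to 2.58 ± 0.948 CPM (SD, n = 3 each).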

How the data were processed

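RNA sequencing libraries of L929 cells, 3 control and 3 treated, were compared. The authors' deposited table holds whole-number counts per Ensembl gene with gene length in bases (a value of type other, per the file headers). The deposited FPKM table holds the same counts divided by gene length and by 1 factor per library. Per the submitters' processing notes, HISAT2 2.1.0, RSEM 1.3.1 and DESeq2 1.24.0 were used, with builds listed as GRCm38 and mm10. Control columns carry the genotype name WT and were matched to control samples by number. Separate cultures are not stated, and p-values then reflect only the spread among these libraries, which may be technical.

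Genes passing edgeR's filterByExpr (13290 of 24708 with a count) were TMM-normalised and tested in edgeR 4.0.16 (robust quasi-likelihood fit, R 4.3.3), with Benjamini-Hochberg adjustment over all tested genes and a threshold of 0.05. CPM is TMM-scaled, and standard errors are the log2 fold change over the root of F. Library totals of 16056207 to 18036322 limit rare genes such as Btg3, whose exact interval holds for counting error alone. The alternatives comprised 5 other scalings, other filters, DESeq2 1.42.0, limma-voom and limma 3.58.1 on log2(FPKM + 1) or log2(FPKM + 0.1) where mean FPKM reached 1, an added replicate block, an offset for gene length (lowess span 0.3) and leaving out each library. In simulated data with 200 changed genes, the fit recovered 38 of 96 changes of 1 log2 unit and 83 of 99 changes of 2 units. Of 125 calls, 4 were false. With so few changed genes, the simulation cannot show how TMM scaling does where 34.6% of genes are called higher and 40.2% lower. Promoters came from RefSeq (GRCm38.p6; 8 of 10 members matched) and untranslated regions from GENCODE on GRCm38.

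The members and lists were chosen with earlier results of these data known. Named genes are all members; of each list, the 3 largest called rises and 3 largest called falls whose mean reached 5 CPM; and the 3 genes nearest to Btg2 and to Cnot1. Of the genes this rule names, 1 is not reported here.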

Additional observations from a re-analysis of the deposited data

How the results depend on the processing

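Over 20 alternatives, Btg2, Cnot1, Cnot2 and Cnot8 kept their direction and call. The sign turned for Tob1 with ribosomal protein genes (-0.49) or mitochondrially encoded genes (-0.38) held equal, and for Btg1 with upper-quartile factors (0.0088). With the gene length offset it turned for Btg1 (0.46), Tob2 (0.17), Cnot3 (0.28) and Cnot7 (0.50), and the offset with the replicate block gave 0.45, 0.15, 0.29 and 0.50; the cause was not tested. Members called higher were 1 when ribosomal protein genes, or mitochondrially encoded genes, were held equal and 4 with the length offset, with or without the block; members called lower were 3 with the length offset, with or without the block. Genes called higher numbered 2276 by library size alone, 251 with ribosomal protein genes held equal and 334 with mitochondrially encoded genes held equal, and genes called lower 10944 and 10333 in the latter 2 fits. Over the 6 lists, the genes called higher numbered 7, 1 and 1 in these 3 fits, and those called lower 78 and 77 in the latter 2 and 33 with the length offset. Leaving out 1 library each time gave 4 to 5 members lower, 2 higher, and 4125 to 4564 genes higher. The replicate numbers did not pair the libraries (same-number correlations of 0.22, -0.137 and 0.029; only replicate 1 correlated best with its own number), and the replicate block gave 2 members higher and 5 lower, with 4450 genes higher and 5411 lower.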
